A study of Homo sapiens with 7 samples.

Results

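The sites described here are 2222 regions of the genome at which 3 libraries of acetylated HOXB13 each gave a peak, while the comparison of 1 of those libraries with IgG gave none. They were found by merging the peaks of the 3 HOXB13-K13ac lists wherever these shared at least 1 bp, which gave 65675 regions. Regions holding a peak of every list were kept (4591), and the 2369 among them that shared a base with a peak of replicate 2 called against IgG were set aside. The members were therefore 3.38% of all merged regions and 48.4% (95% interval 46.9 to 49.9) of the sites of all 3 libraries. Of all 65675 merged regions 90.5% had no IgG call, and of the 27046 regions with peaks of at least 2 lists 76.8% had none, so the lack of a call was less frequent among sites of all 3 libraries than in the lists at large. The members were thus selected on the presence of a peak and the lack of an IgG call, and their strengths are given as a description with no test.

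The cells were C4-2B, an established castration-resistant prostate cancer line derived from LNCaP, cultured for every library with charcoal-stripped serum, poor in steroid hormones, and given no other treatment. The 7 libraries were 3 precipitations of HOXB13 carrying an acetyl group on lysine 13, 2 with non-specific IgG and 2 inputs of sheared chromatin. Titles begin with the number 2898 for replicate 1 and 3047 for replicates 2 and 3. Separate cultures are not stated, so the spread between replicates may be technical.

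The homeobox protein HOXB13, a posterior member of the HOX group, marks the prostate lineage, where it acts on many of the same enhancers as the androgen receptor and FOXA1. Acetylation of a lysine is a reversible modification that can create a docking site for bromodomain proteins. In chromatin immunoprecipitation, DNA fragments bound by the antigen are enriched over the background of the same chromatin. Input measures the background of shearing and mapping, whereas IgG also carries what sticks to beads and antibody without the antigen. A site listed against input and not against IgG is one where the precipitation exceeded sheared chromatin by enough to be listed, while no excess over the non-specific antibody was listed.

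The files hold peak lists without read counts, so the depth is unknown. For each peak the authors' caller gave a fold enrichment, the ratio of the precipitate to its control background, and a −log10 q. A list was tied to its replicate by spelling alone, and those of replicates 1 and 3 differ by 1 punctuation mark. No label names the control behind the first list, and the lists of replicates 2 and 3 were called against input. The replicate 2 list against IgG held 7506 peaks, of which 1616 (21.5%) had a q of 0.05 or less. The replicate 3 list against IgG held 1 peak, which met 0 members. No IgG or input list of its own was analysed here, so the level of IgG at the members is not known. Coordinates are on hg19 and counted from 1. Genes near the sites and their DNA sequence were not analysed here, because the reference tables used another build.

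The members' fold values were highest in the list of replicate 2 and lowest in that of replicate 3. In replicate 1 their fold enrichment ran from 2.09 to 34.9 with a median of 8.58 (interquartile range 6.17 to 11.6). In replicate 2 it ran from 1.70 to 48.7 with a median of 12.1 (8.61 to 17.2), and in replicate 3 from 2.35 to 15.5 with a median of 4.88 (4.203 to 5.87). A region with several peaks of a library took the highest of them. Controls and depth may differ between the lists, so levels between libraries are not on one scale. Replicate 2 gave the highest of the 3 values at 79.7% of the members, and replicate 3 the lowest at 85.3%.

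The sites with an IgG call had higher medians than the members in all 3 libraries. The interquartile ranges overlapped in replicates 1 and 3 and barely met in replicate 2, where 238 members (10.7%) reached the median of the IgG-called sites. Their medians were 12.4 (9.503 to 15.6), 22.9 (17.2 to 30.9) and 5.40 (4.50 to 6.55) for replicates 1, 2 and 3. The gap was widest in replicate 2, the library on which the IgG comparison was made, and narrowest in replicate 3. Sites of replicates 1 and 2 only, again without an IgG call, numbered 18275 and had lower medians than the members. Their medians were 4.75 (3.66 to 6.65) in replicate 1 and 7.53 (5.74 to 10.3) in replicate 2, ranges that overlap those of the members. The 3894 sites of replicates 1 and 2 only with an IgG call had higher medians than the members, 8.66 and 17.1.

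**Figure D1:**
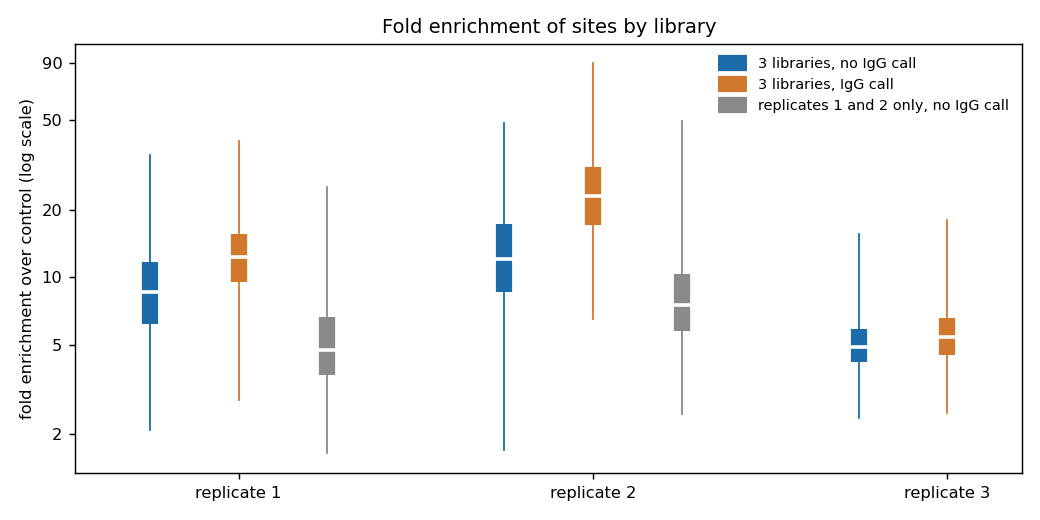
Fold enrichment over the control (vertical axis, log scale) by library for members, IgG-called sites of all 3 libraries and sites of replicates 1 and 2 only. Thin lines span the lowest to the highest site, thick bars the interquartile range and white marks the median. The members' medians, 8.58 and 12.1 in replicates 1 and 2, lie between those of the other 2 sets.

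Significance by the caller was uneven between libraries as well. All 2222 members had a q of 0.05 or less in replicates 1 and 2, and 2108 (94.9%, 93.9 to 95.8) did in replicate 3. At a −log10 q of at least 5 the members numbered 2190 in replicate 1, 2144 in replicate 2 and 332 in replicate 3. Only 328 (14.8%, 13.3 to 16.3) reached this level in all 3, compared with 617 of the 2369 IgG-called sites (26.0%, 24.3 to 27.9). The replicate 3 peak thus set how strictly most members were replicated.

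Members were ranked by the lowest of their 3 values, and those at the top were high in every library. The first lay at chr1:41706575-41708951, with fold enrichments of 15.6, 28.6 and 15.5 for replicates 1, 2 and 3. The second, chr4:1713094-1714516, had 25.7, 27.3 and 15.0 in the same order. Both reached a −log10 q of 22.9 in replicate 3, the highest values of that library among the members named here.

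A pair of sites on chromosome 10 followed. The site at chr10:135121609-135122802 had fold enrichments of 23.6 in replicate 1, 13.8 in replicate 2 and 12.01 in replicate 3, so that replicate 1 led. At chr10:69643365-69645350 the values were 15.7, 14.8 and 12.01, nearly level across the libraries. The other 8 of the 12 strongest ranged between 12.3 and 19.2 in replicate 1, 12.9 and 36.3 in replicate 2, and 11.3 and 11.9 in replicate 3. At all 12 the lowest value was that of replicate 3, which therefore fixed their order.

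By replicate 2 alone, the strongest members were others. At chr2:201727584-201730056 the replicate 2 fold enrichment was 48.7, with 18.9 in replicate 1 and 5.77 in replicate 3. At chr16:89938981-89940479 it was 48.5, with 26.5 and 8.63. The next 3 were chr7:152161105-152162481 with 48.0, chr15:65281352-65282312 with 46.8 and chr11:505383-507307 with 46.1. These 5 values exceed the third quartile of the IgG-called sites, 30.9, and still came with no IgG call. The nearest IgG peak lay 250 bp from the last of them, and 352886 bp from the first.

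At the other end were members with a low fold in at least 1 library, although several had a small q in another. The lowest was chr16:14579658-14581071, with fold enrichments of 4.63 in replicate 1, 1.70 in replicate 2 and 3.05 in replicate 3. Its −log10 q was 9.41 in replicate 3 and 1.39 in replicate 2, so a low fold came with a small q in one library and not in the other. At chr13:29927811-29928421 the folds were 2.09, 3.90 and 3.503. The other 3 of the 5 lowest, on chromosomes 1, 3 and 17, were also lowest in replicate 1 (2.14, 2.15 and 2.26).

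The share of sites without an IgG call fell steadily with strength in replicate 2. The IgG call was made on this library, so a fall along its fold values is partly built into the rule. Ranked by replicate 2 fold enrichment and cut into 10 equal parts, 457 of the 460 weakest sites (99.3%, 98.1 to 99.9) had no IgG call. The share was 47.9% (43.3 to 52.6) in the fifth part and 7.41% (5.18 to 10.2) in the strongest, where 34 of 459 sites were members. By replicate 1 fold enrichment the share fell from 89.8% (86.7 to 92.4) to 22.7% (18.9 to 26.8). By replicate 3 it fell less, from 57.8% (53.2 to 62.4) to 31.8% (27.6 to 36.3), with a value of 59.7% in the third part.

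**Figure D2:**
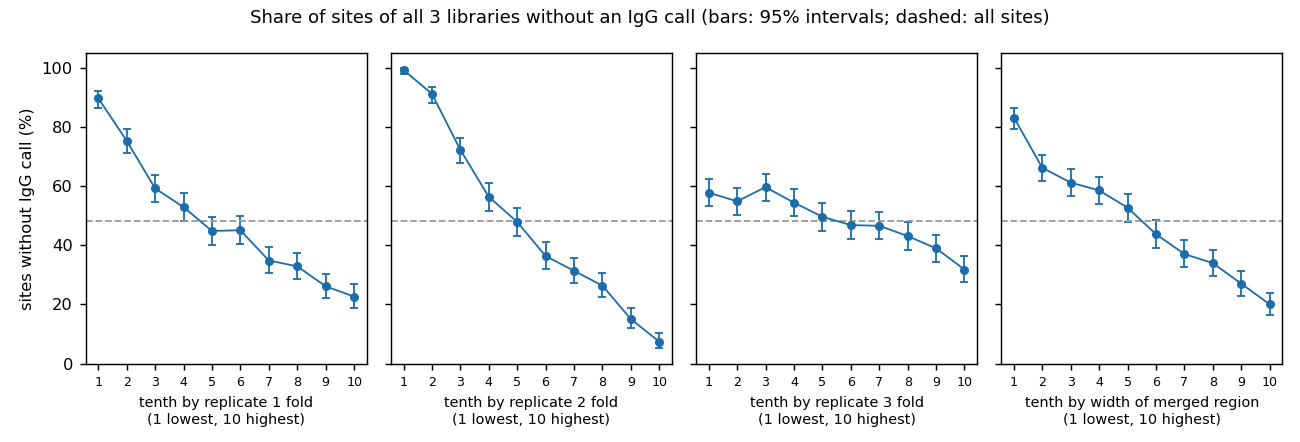
Share of the 4591 sites of all 3 libraries that carry no IgG call (vertical axis, percent) in 10 equal parts ranked by fold enrichment in each replicate or by width (horizontal axis). Bars are exact 95% binomial intervals and the dashed line is the share over all sites. The fall is steepest for replicate 2, from 99.3% to 7.41%, and shallowest for replicate 3. The IgG call was made on replicate 2, so its fall is partly built in.

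An IgG call was itself graded. Of the 2369 IgG-called sites, 1485 met only IgG peaks with a q above 0.05 and 884 met one with a q of 0.05 or less. Median replicate 2 fold enrichment rose from 12.1 in the members to 18.4 in the first of these groups and 32.7 in the second. In replicate 1, whose reads the IgG list of replicate 2 did not use, the medians of the 3 groups were 8.58, 10.96 and 14.8, and in replicate 3 those were 4.88, 5.19 and 5.80. The order in replicate 2 is partly built in, because the IgG list was called on that library. Replicates 1 and 3 gave the same order, though replicate 1 values rose with those of replicate 2 (Spearman's rho 0.59 at the members). The interquartile ranges of neighbouring groups overlapped, except between the latter groups in replicate 2 (15.1 to 23.1 and 26.8 to 40.6).

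Once replicate 2 strength was alike, members and IgG-called sites differed little in the other libraries. The lowest part was set aside, because it held 3 IgG-called sites. In the remaining 9 parts by replicate 2 fold enrichment, the ratio of the members' median to that of the IgG-called sites lay between 0.819 and 1.02 in replicate 1. In replicate 3 it lay between 0.929 and 1.09. The members' median was the lower in 6 of these 9 parts for replicate 1 and in 3 of 9 for replicate 3. In the seventh part, for example, 144 members had medians of 11.8 in replicate 1 and 5.45 in replicate 3, and 315 IgG-called sites had 11.6 and 5.31. In the second part, the replicate 1 median was 7.435 for 419 members and 9.08 for 40 IgG-called sites. Replicate 2 medians were not fully alike within the 9 parts either, with ratios of 0.907 to 1.01.

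**Figure D3:**
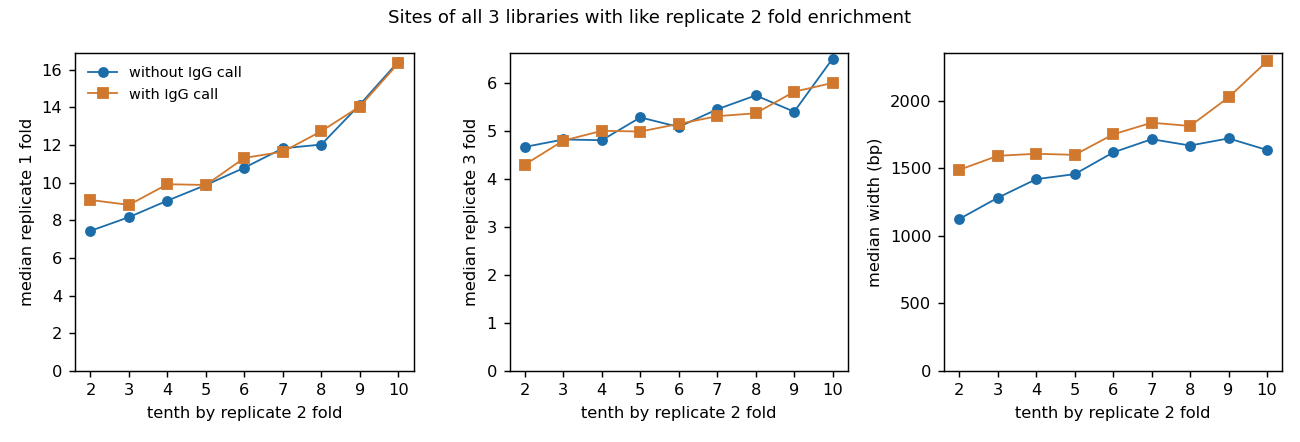
Median replicate 1 fold enrichment, replicate 3 fold enrichment and width in bp (vertical axes) of members and IgG-called sites within parts 2 to 10 of the ranking by replicate 2 fold enrichment (horizontal axis). The 2 sets run close together for fold enrichment, while members are narrower in all 9 parts.

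The median width was lower for members than for IgG-called sites. Members had a median width of 1272 bp (911 to 1759) and IgG-called sites 1854 bp (1364 to 2472), ranges that overlap. Within parts 2 to 10 by replicate 2 fold enrichment, the ratio of the members' median width to that of the IgG-called sites was 0.713 to 0.934. The members' median was thus the lower in 9 of 9. Part of this is built in, since a wider region has more bases on which an IgG peak can fall. With sites cut into 3 groups by fold and 3 by width, the share without an IgG call was 91.5% (89.5 to 93.3) for weak narrow sites and 69.4% (62.7 to 75.6) for weak wide ones. It was 29.5% (23.9 to 35.5) for strong narrow sites and 13.2% (10.9 to 15.7) for strong wide ones.

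The 5 widest members were built from several peaks. The widest, chr7:918525-925948, spanned 7424 bp and joined 4 peaks of replicate 1 with 1 of replicate 2 and 2 of replicate 3, at fold enrichments of 10.9, 12.1 and 4.71. The next, chr11:2277010-2283540, spanned 6531 bp and had 12.7, 38.7 and 4.203. The remaining 3 lay on chromosomes 17 and 14 and measured 5728 to 5865 bp. Such joining was not the rule: 1546 members (69.6%, 67.6 to 71.5) held exactly 1 peak of each list, compared with 55.3% (53.3 to 57.4) of the IgG-called sites.

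Within a member the 3 peaks had very different extents. Replicate 2 peaks covered a median of 96.4% of the merged region and replicate 1 peaks 85.0%. Replicate 3 peaks covered 22.9% (15.1 to 34.2), with a median of 275 bp per site. Together the members covered 3.15 Mb.

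How close the summits lay depended on the pair of libraries. The distance between the strongest summits of replicates 1 and 2 had a median of 75 bp, and 59.9% (57.8 to 62.0) were within 100 bp. For replicates 1 and 3 the median was 87 bp and the share 53.5% (51.4 to 55.6). For replicates 2 and 3 it was 133 bp and 41.1% (39.1 to 43.2), the pair that shares a title number. The 3 strongest summits of a member spanned a median of 197 bp (87 to 464.8). All 3 fell within 100 bp of one another in 656 members (29.5%, 27.6 to 31.5) and in 739 IgG-called sites (31.2%, 29.3 to 33.1), intervals that overlap. They were spread over more than 1000 bp in 4.55% (3.72 to 5.50) of members and 7.85% (6.80 to 9.01) of the wider IgG-called sites.

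**Figure D4:**
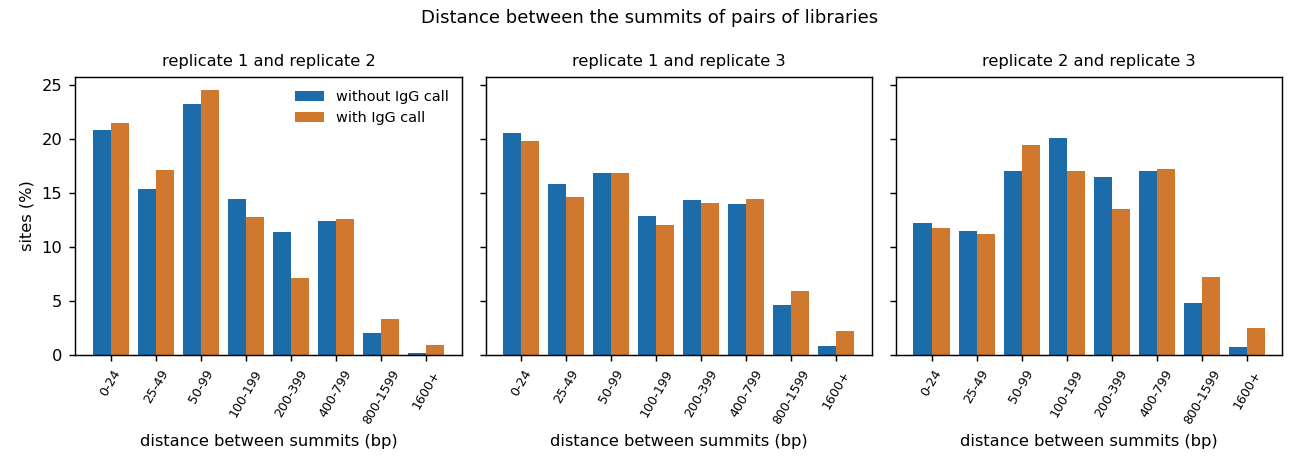
Percentage of members and of IgG-called sites (vertical axis) by distance in bp between the strongest summits of each pair of libraries (horizontal axis, in bins that widen to the right). The 2 sets follow similar profiles, with medians of 75 and 68 bp for replicates 1 and 2.

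The border of the rule was sharp in bases but not in strength. The member closest to an IgG peak, chr1:179851844-179852538, was 93 bp away from it and had fold enrichments of 8.57, 7.59 and 4.37. At 100 bp, chr22:46446894-46450213 had 18.0, 22.9 and 5.40. The other 3 of the 5 closest were 117 to 158 bp away, on chromosomes 1, 2 and 19.

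On the other side, the 5 IgG-called sites with the smallest overlap each shared 235 bp with an IgG peak. These 5 tied at that value and were taken by position, so other sites may share as few bases. How much of each IgG peak these 235 bp made up was not analysed here. Those IgG peaks had fold enrichments of 2.27 to 2.69 and a −log10 q of 0. The sites themselves had 5.82 to 16.8 in replicate 1, 8.96 to 15.2 in replicate 2 and 3.43 to 6.60 in replicate 3, within the range of the members.

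Most members were far from any IgG peak. The median gap was 57242 bp (17489 to 164985). An IgG peak lay within 1000 bp of 152 members (6.84%, 5.83 to 7.97) and within 10000 bp of 401 (18.0%, 16.5 to 19.7), while 66 members had none within 1000000 bp.

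A further list of acetylated HOXB13 peaks was not used by the rule. It was called against input, and no label ties it to a library, so it may share reads with a replicate and does not stand for a further one. It held a peak in 2207 members (99.3%, 98.9 to 99.6), against 86.9% of all regions with peaks of at least 2 lists and 45.5% of all merged regions. All 2369 IgG-called sites held one (99.8 to 100), as did 81.1% (80.6 to 81.7) of the sites of replicates 1 and 2 only without an IgG call. The median fold enrichment of that list was 10.5 at the members (7.87 to 14.2) and 17.4 at the IgG-called sites (13.5 to 23.03).

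The 15 members without a peak in this list were weak. Median fold enrichment there was 3.97 for replicate 1, 4.84 for replicate 2 and 4.203 for replicate 3, and the highest replicate 2 value was 6.13. Within parts 2 to 10 by replicate 2 fold enrichment, the ratio of the members' median in this list to that of the IgG-called sites was 0.988 to 1.04. This list ordered the sites much as replicate 2 did (Spearman's rho 0.92 at the members and 0.93 at the IgG-called sites). Near-level medians at like replicate 2 strength therefore add little to those of replicate 2 itself.

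Across the members, the order by strength was most alike between replicates 1 and 2 among the replicate pairs (Spearman's rho 0.59, n = 2222 sites). The rho was 0.31 for replicates 1 and 3 and 0.26 for replicates 2 and 3. Between the list without a label and replicate 2 it was 0.92 (n = 2207), with replicate 1 it was 0.61 and with replicate 3 it was 0.39. These are descriptions across sites, which are not independent. The lists of replicates 2 and 3 and that without a label were all called against input.

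A replicate 3 peak was less frequent at sites lacking an IgG call, and strength moved with both. Of the 26760 sites with peaks of replicates 1 and 2, 17.2% held a replicate 3 peak. Without an IgG call this share was 10.8% (10.4 to 11.3), which is the 2222 members of 20497 sites, and with a call it was 37.8% (36.6 to 39.0). The median replicate 2 fold enrichment of these 2 groups was 7.91 and 18.6. These sites were also cut into 10 parts by replicate 2 strength. Parts 1, 2 and 3 held 1, 1 and 3 IgG-called sites, too few to compare. From the fourth part up the gap was smaller, and the share was higher with a call in all but the ninth. Strength was not fully alike within a part. In the strongest, the replicate 2 medians were 25.55 without and 28.7 with a call. In the sixth part the share was 12.5% (11.2 to 13.9) without a call and 17.5% (13.3 to 22.4) with one. In the seventh it was 15.8% (14.2 to 17.5) and 20.7% (17.8 to 23.9), intervals that do not overlap, and in the eighth 22.7% (20.5 to 25.0) and 25.5% (23.1 to 28.0). The ninth part had the opposite order, with 36.7% (33.6 to 39.8) without and 33.9% (31.7 to 36.2) with a call. In the strongest part the shares were 52.5% (48.1 to 56.9) and 57.8% (55.7 to 59.9).

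Most members had a neighbouring site within 10 kb, while few had another member that close. Another site with peaks of at least 2 libraries lay within 10 kb of 1230 members (55.4%, 53.3 to 57.4). This is below the 59.5% of all such sites, and the interval overlaps that of the IgG-called sites, 52.2% (50.2 to 54.2). Within 5 kb the shares were 47.6% (45.5 to 49.7) of members and 41.8% (39.8 to 43.8) of IgG-called sites, without overlap. The nearest site of at least 2 lists lay a median of 6386 bp away. The nearest other member was a median of 178338 bp away, and between IgG-called sites the same median was 154868 bp. Another member lay within 10 kb of 9.99% of members. Among IgG-called sites, 10.3% had another IgG-called site within 10 kb. After joining sites 10 kb apart or less, 992 members (44.6%) stood alone, 1032 were in clusters of 2 to 4 sites and 198 (8.91%) in clusters of 5 or more. Clusters with at least 3 members numbered 9.

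The cluster with most members lay near the start of chromosome 16, at chr16:711035-779341. It held 16 sites in 68.3 kb, of which 6 were members and 2 were IgG-called sites of all 3 libraries. The fold enrichment of its members lay between 6.69 and 13.9 in replicate 1, 6.67 and 26.8 in replicate 2, and 4.12 and 7.10 in replicate 3. The strongest of them in replicates 1 and 2, chr16:777023-778355, had 13.9, 26.8 and 5.74.

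The second cluster, chr14:105932177-105962561, held 5 members among 9 sites and 0 IgG-called sites of all 3 libraries. Its first member, chr14:105932177-105936281, spanned 4105 bp with fold enrichments of 6.71, 20.8 and 6.004. Its last, chr14:105961460-105962561, had 4.12, 4.50 and 4.24, so that replicate 2 values within the cluster, from 4.50 to 24.4, spanned more than the interquartile range of all members. The third, chr11:555250-577538, held 3 members among 7 sites, and again 0 IgG-called sites of all 3 libraries. At its last member, chr11:576117-577538, replicate 1 was highest with 16.3, compared with 13.6 in replicate 2 and 6.91 in replicate 3.

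On the scale of 1 Mb, members were found in 1103 windows, and 85 windows with 5 or more held 553 of them. Like counts of windows and clusters are not given for the IgG-called sites. Neither is thus shown to be particular to the members. The first megabase of chromosome 16 held 16 members and 9 IgG-called sites, that of chromosome 11 held 15 and 6, and chromosome 8 from 145000001 to 146000000 held 14 and 4.

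The density of members was 0.741 per Mb (0.710 to 0.772) over the chromosome lengths that the peaks span. It was highest on chromosome 22 with 2.52 (2.02 to 3.12), and chromosome 19 had 2.50 (2.11 to 2.94). Next were chromosome 17, at 1.80 (1.52 to 2.12), and chromosome 16, at 1.42 (1.19 to 1.69). Among the autosomes it was lowest on chromosome 4 with 0.351 (0.272 to 0.446). Chromosome Y held 0 members. This order largely follows that of all sites with peaks of at least 2 lists, which numbered 723 on chromosome 22, 1487 on chromosome 19 and 1029 on the longer chromosome 4. As a share of those sites, members made up 11.9% on chromosome 22, 9.89% on chromosome 19 and 6.51% on chromosome 4. The lowest share on an autosome was 6.36%, on chromosome 6.

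The share of sites of all 3 libraries that lacked an IgG call was near 48.4% on most chromosomes. On chromosome 2 it was 60.6% (53.5 to 67.4), from 123 members and 80 IgG-called sites. Chromosome 16 had 55.9% (49.2 to 62.4) and chromosome 3 the lowest value, 41.8% (36.1 to 47.7). These 3 intervals did not include 48.4%, and the other 20 did. Sites on chromosome 2 were somewhat weaker in replicate 2, with a median fold enrichment of 15.6 compared with 17.3 over all sites. In replicate 1 their median was 10.96, where chromosome 13 had the lowest, 9.29, and chromosome 4 the highest, 11.2. Above a replicate 2 fold of 17.3 the share without an IgG call on chromosome 2 was 32.5% (22.7 to 43.7) against 23.3% genome-wide. Below it the share was 80.0% (71.7 to 86.8) against 73.6%. Both intervals include the genome-wide share. Leaving out chromosome 2 moved the genome-wide share to 47.8%.

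**Figure D5:**
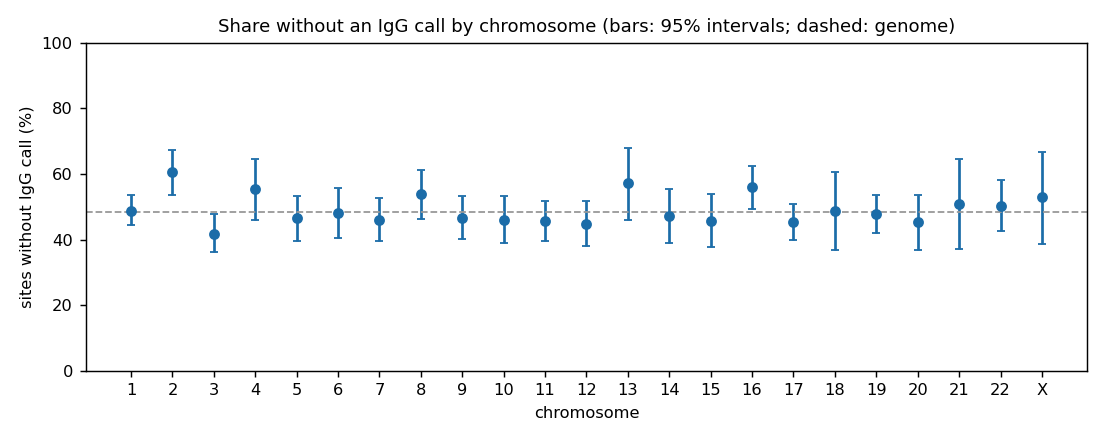
Share of sites of all 3 libraries without an IgG call (vertical axis, percent) on each chromosome (horizontal axis), with exact 95% binomial intervals. The dashed line is the genome-wide share of 48.4%. Chromosomes 2 and 16 lie above it and chromosome 3 below it.

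Chromosome X held few members for its sites. Of 799 sites with peaks of replicates 1 and 2 there, 28 were members (3.504%, 2.34 to 5.03), compared with 8.45% (8.12 to 8.80) on the autosomes. The rule requires a replicate 3 peak, so the share of members cannot exceed the share of sites with such a peak. That share was 6.63% (5.01 to 8.59) of these sites on X and 17.5% (17.0 to 17.9) on the autosomes. Replicate 3 had 0.746% of its peaks on X, replicate 1 2.72% and replicate 2 3.00%. Other measures of the sites of replicates 1 and 2 differed as well. An IgG call was present at 13.8% on X and 23.7% on the autosomes. The list without a label held a peak in 77.1% and 87.4%. Median fold enrichment on X was lower in replicate 2 (8.515 against 9.43) and higher in replicate 1 (6.22 against 5.84). Why X held few members was not tested. Among the 53 sites of all 3 libraries on X, the share without an IgG call was 52.8% (38.6 to 66.7), an interval that includes the genome-wide value.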

How the data were processed

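The deposited files are 6 peak lists. MACS2, Bowtie2, BWA and CASAVA 1.4 are named, per the submitters' processing notes, as are the builds hg19 and GRCh37. What each tool did, and which threshold or filter made a list, was not stated in the labels used here. Fold enrichment, a ratio, and −log10 p and −log10 q are used as deposited by the authors for each peak. Depth is unknown for all 7 libraries.

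Peaks were merged and compared in Python 3.11.15 (pandas 2.3.3, SciPy 1.17.1, NumPy 2.4.6). Counts per region equalled those of bedtools 2.31.1, and the code was tested on simulated lists (2500 of 2500 simulated members found). Intervals are exact 95% binomial or Poisson intervals. They cover counting error only, and neighbouring sites are not independent. No test was made, because the members were selected on these lists. Sites named by position are those strongest, weakest, widest or nearest to the border of the rule, and the clusters and windows with most members. The members and lists were chosen with earlier results of these data known. Motifs, GC content and gene positions were planned only for a genome of the same build and were not analysed here.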

Additional observations from a re-analysis of the deposited data

How the results depend on the processing

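The number and share of sites without an IgG call depended on how peaks were selected. When an IgG peak counted only at a q of 0.05 or less, there were 3707 members (80.7% of the sites of all 3 libraries), which included all 2222. With no IgG peak within 1 kb the share was 45.1%, and with a −log10 q of 2 or more for each peak it was 45.9%. At 5 or more there were 328 members (34.7%), 100% of them in the list without a label and 48.2% with another site within 10 kb. With summits within 100 bp there were 704 (46.4%), with peaks overlapping by 0.5 of each width 150 (71.1%), and with the list without a label in place of replicate 3 there were 16992 (73.1%). Leaving out 1 replicate gave 2362 to 20499 members and shares of 50.2% to 76.6% without an IgG call. It gave 83.1% to 99.2% with a peak in the list without a label, and 18.6% to 59.6% with another site within 10 kb. The highest count, 20499, was that without replicate 3. The lowest share within 10 kb, 18.6%, was that without replicate 1, and without replicate 2 it was 21.5%. In these settings a neighbour had to hold peaks of both remaining lists, and the IgG list was that of replicate 2 throughout. Of all 2222 members, 82.5% had a summit of the list without a label within 100 bp of the replicate 2 summit. A limit of 5 kb gave 47.6% with a neighbour and 20 kb gave 66.2%. With the mean of a library's peaks in a region, the replicate 1 median was 8.11, and those of replicates 2 and 3 were 11.6 and 4.82. Leaving out chromosome 2 was chosen after seeing the data. No paired analysis was possible because the result comes from no test and no IgG or input list was analysed here. Motif and gene alternatives were not run.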

Other observations

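At 425 members (19.1%) the fold value in the replicate 1 list exceeded that in the replicate 2 list. The values of different lists are not on one scale, so this orders the deposited values only. These members had median fold enrichments of 11.1, 8.77 and 4.91 for replicates 1, 2 and 3. The list without a label held a peak in 419 of them, with a median fold enrichment of 8.52. Replicate 1 was highest of the 3 at 18.7% (17.1 to 20.4) of the members and, among IgG-called sites, at 4.52% (3.72 to 5.43). The IgG comparison was made on replicate 2.

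At 35 members (1.58%) replicate 3, whose list has the lowest median fold enrichment of the 3, gave the highest value. These had a median width of 793 bp and medians of 4.00, 4.87 and 5.87 in replicates 1, 2 and 3. The list without a label held a peak in 32 of them. No IgG-called site had replicate 3 as its highest library (0 of 2369, upper limit 0.156%). The IgG call was made on replicate 2, where these sites had a fold of at least 6.49. Their replicate 3 median was 5.40 and their highest replicate 3 value was 18.01. How far this 0 follows from the selection was not tested.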
